A study of Mus musculus with 8 samples.

Results

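Arid1a knockdown was set against control siRNA in vehicle-treated 266-6 cells, by the peaks of acetylated histone H3 lysine 27 (H3K27ac) in 4 of the 8 libraries of the series. Overlapping peaks of these 4 libraries (1 bp or more) were joined into 32418 regions, beside 33920 when the lists of all 8 libraries were joined. For each region the presence of a peak, the covered length (base pairs of the region under a peak) and the rank of the region's highest fold enrichment within its library were read from the deposited peak lists.

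The 266-6 line is an established mouse pancreatic acinar cell line. The control group (2 libraries, titled as controls and labelled Arid1a-wildtype) received the non-targeting siRNA NT5. The knockdown group (2 libraries, labelled Arid1a-knockdown) received siRNA against ARID1A, for which the labels give 2 catalogue items. Both groups shared every other step that the labels give: siRNA at 25 nM by reverse transfection for 48 h, serum starvation overnight, and vehicle (BSA, 0.1%) for 8 h. A second set of 4 libraries, 2 for each siRNA, received EGF at 40 ng/ml for 8 h in place of vehicle. It played no part in choosing regions by their vehicle values and is used below to follow them. Knockdown was transient, in a single cell line, and a match of the ARID1A siRNAs to the mouse gene is not stated in the labels. Arid1a itself was not measured in these files, so knockdown names the siRNA given. The siRNA that defines the control group is shown because every difference below is measured against cells that received it; the labels do not say which strand of the duplex it is.
NT5 siRNA: ugguuuacaugucgacuaa

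Arid1a is a DNA-binding subunit of the BAF form of the SWI/SNF complex, which uses ATP to move or evict nucleosomes, and much of its binding lies at enhancers. Acetylation of H3 at lysine 27 is written mainly by the acetyltransferases p300 and CBP and marks active promoters and enhancers. In the pancreas Arid1a is known as a tumour suppressor whose loss alters acinar cell identity. Because the peak positions are in build mm9 and a gene annotation of that build was not used here, regions are named by position, and the genes they serve, including markers of acinar cells, were not analysed here.

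The first control library stood apart from the other 3. It held 22167 peaks over 34.3 Mb, against 28281 peaks over 47.2 Mb in the second control library, and 26844 and 27558 peaks over 46.3 and 48.7 Mb in the knockdown libraries. Peaks covered 47.5 ± 1.66 Mb in knockdown libraries against 40.8 ± 9.09 Mb in controls (SD, n = 2 each), a difference within the spread of the controls (two-sided exact permutation p = 0.667). The number of peaks was 27201 ± 505 with knockdown and 25224 ± 4323 in controls (SD, n = 2; exact permutation p = 1). Peaks of at least 10 kb numbered 72 and 150 in controls and 161 and 208 with knockdown, groups that did not overlap, but 2 libraries against 2 cannot give a two-sided exact permutation p under 0.33. Read depth is unknown, so no counting interval can be given, and depth, a library of poorer yield and siRNA cannot be told apart in these totals. The labels do not tie the duplicates to separate cultures. The p-values therefore reflect the spread between these libraries alone, and that spread may be technical.

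Most acetylated regions were held with and without knockdown. A peak was present in all 4 libraries in 19564 regions (60.3%), which held 83% of the merged base pairs at a median width of 1977 bp. A further 6018 regions (18.6%) had a peak in a single library, 2437 of them in the second control library, 1916 and 1463 in the second and first knockdown library, and 202 in the first control library. The pattern with the most regions after the fully shared one was a peak in every library but the first control, with 2892 regions (8.92%), whereas only 155 (0.478%) were missing from the second control library alone.

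**Figure D1:**
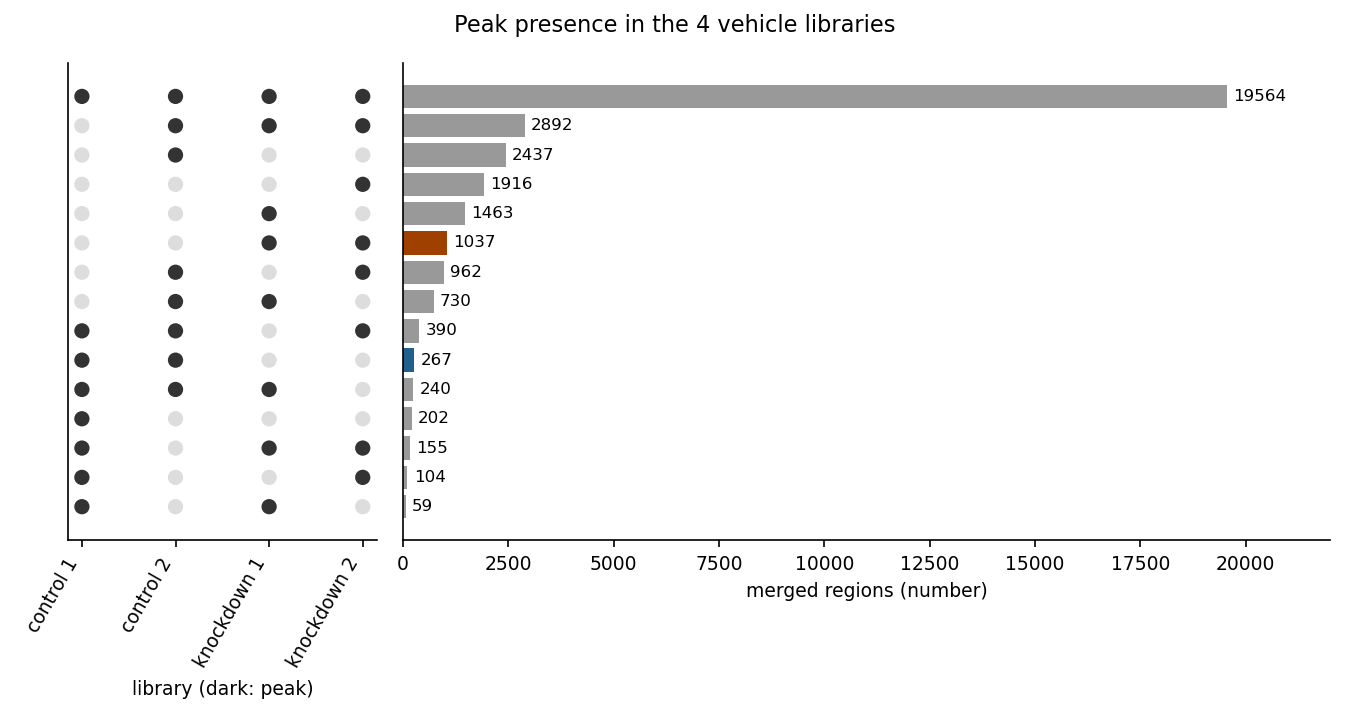
Number of merged regions (horizontal axis) for each of the 15 combinations of libraries that hold a peak; dark dots mark the libraries with a peak. Regions gained with knockdown are in brown (1037) and regions lost in blue (267), and 2892 regions lacked a peak in the first control library alone.

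Regions gained with knockdown, those with a peak in both knockdown libraries and in neither control, numbered 1037 (3.2% of 32418). Regions lost, with the reverse pattern, numbered 267 (0.824%). Both sets were narrow, with median widths of 808 bp and 830 bp, and weak: gained regions lay at a median fold percentile of 16.8 and 17.8 in the first and second knockdown list, and lost regions at 11.7 and 22.2 in the first and second control list. Gained regions lay a median of 10.8 kb from the nearest fully shared region, and 31.8% were within 5 kb of one. For lost regions the median was 18.1 kb and the share 22.8%. The balance of gains over losses depended on the control library. With the first control library left out there were 1191 gains and 2716 losses, with the second left out 3940 and 523. Dropping a knockdown library gave 3023 gains and 511 losses (the first) or 2634 and 681 (the second). A left-out library can only raise either count, since fewer libraries must then hold or lack a peak.

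The gained region ranked first lay on chr14:47441510-47441842 and had 286 and 333 bp under a peak in the knockdown libraries, at percentiles 66.1 and 68.8 of their lists. It had no peak in either control or in any EGF library. The second, chr17:34105649-34106023, had 298 and 375 bp with knockdown and none in controls, and with EGF again had a peak only in the knockdown libraries, over 243 and 256 bp. Another of this kind, chr12:99912996-99913223, had 203 and 228 bp with knockdown and 195 and 197 bp with knockdown and EGF, and no peak in any of the 4 control libraries. The 10 leading gained regions were 228 to 832 bp wide, so that even the best-ranked gains were short peaks. By limma, which tested covered length on the scale log2(covered bp + 200), their adjusted p ranged from 0.424 to 0.58.

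Leading lost regions were longer, up to 1319 bp. The region on chr17:15367822-15369140 had 822 and 1319 bp in controls and no peak with knockdown. With EGF it had 741 and 786 bp in control libraries and again none with knockdown. Its difference was -2.64 ± 0.44 (SE, limma adjusted p = 0.389) on the log2(covered bp + 200) scale. On the same chromosome, chr17:15486834-15487838 had 397 and 1005 bp in controls, none with knockdown, and with EGF a peak of 477 bp in the second control library alone. Losses on chr6:134549048-134549856 (430 and 809 bp in controls), chr6:143427641-143428343 (515 and 593 bp) and chr6:87431754-87432579 (675 and 826 bp) also had a peak in both EGF control libraries and in neither EGF knockdown library. By contrast chr10:53821650-53822816, with 830 and 680 bp in controls, had no peak in any EGF library. Nor had the lost region ranked first, chr18:4036467-4037740 (208 and 1274 bp in controls), or chr17:34837364-34837611 (203 and 212 bp). Limma tested 26400 regions in which 2 or more libraries held a peak and called 0% (0 regions) at an adjusted p under 0.05, with 2519 at an unadjusted p under 0.05, of which 2117 were longer and 402 shorter with knockdown.

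Inside the 19564 fully shared regions, peaks were longer with knockdown mostly by comparison with the first control library. Median covered length per region was 1311 bp and 1639 bp in the first and second control library and 1624 bp and 1676 bp with knockdown. The median log2 ratio of covered length was 0.27 and 0.32 for the knockdown libraries over the first control, and 0.25 for the second control over the first. Over the second control the knockdown libraries differed by medians of 0.02 and 0.05. Averaged over libraries the median log2 difference was 0.18 (1.13-fold), and 75.6% of regions were above 0. Both knockdown libraries were longer than both controls in 7160 regions (36.6%) and shorter in 1363 (6.97%). Limma called 0% of the 19564 (smallest adjusted p = 0.6), with 1283 longer and 212 shorter at an unadjusted p under 0.05.

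**Figure D2:**
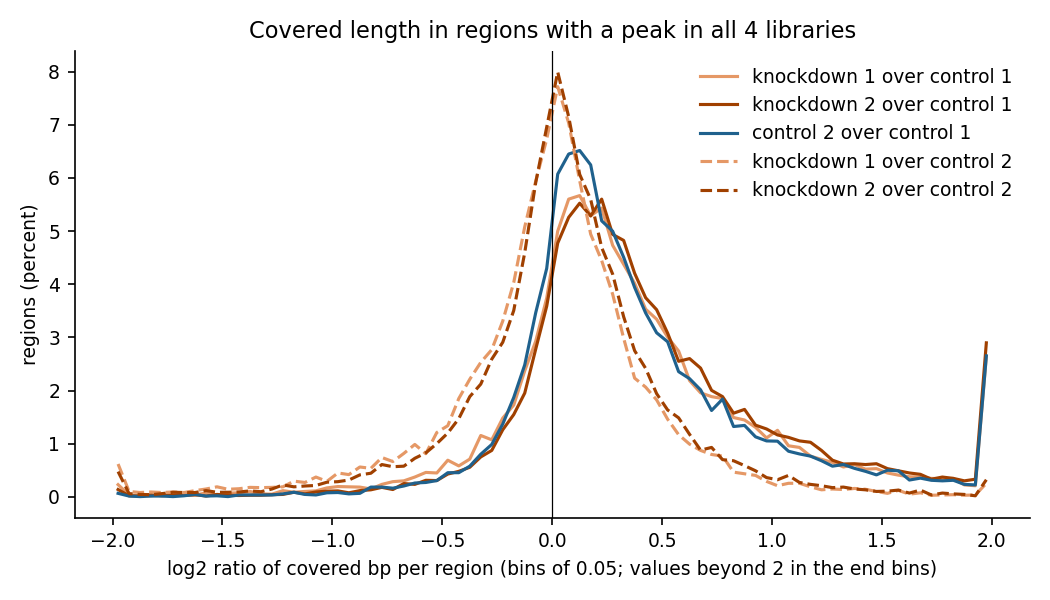
Percent of the 19564 fully shared regions (vertical axis) by the log2 ratio of covered base pairs between pairs of libraries (horizontal axis, bins of 0.05). The curves of both knockdown libraries and of the second control over the first control lie close together to the right of 0 (medians 0.27, 0.32 and 0.25), while the dashed curves over the second control are centred near 0.

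In vehicle, coverage was also more broken in controls, most of all in the first. The first control library split 1016 shared regions (5.19%) into several peaks and the second 679 (3.47%), against 613 (3.13%) and 476 (2.43%) with knockdown. This did not repeat with EGF, where the shares of the same regions were 4.74% and 4.48% in controls and 4.61% and 4.65% with knockdown. Longer coverage was more frequent in wide regions: among the 264 shared regions over 10 kb, 53.4% were longer in both knockdown libraries and 1.14% shorter, yet the median log2 difference against the second control library alone was 0.05 there as well. The widest region, chr11:74259233-74322296, was covered over 49796 and 61879 bp in controls and 61346 and 62169 bp with knockdown. The next, chr8:124804322-124857474, had 50947 and 52432 bp in controls and 53153 and 52904 bp with knockdown. The 5 widest regions differed by log2 0.04 to 0.16, at limma adjusted p of 0.705 to 0.91. In the widest region the groups overlapped, and in the second widest both knockdown libraries were slightly longer than both controls.

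Single regions with the smallest limma p lengthened or shortened far more than the median, with controls close together. That choice favours both traits. On chr5:64771814-64774586 a peak of 290 and 320 bp in controls faced 2479 and 2773 bp with knockdown, a log2 difference of 3.11 ± 0.24 (SE, 8.61-fold; limma adjusted p = 0.6). With EGF the region had 419 and 497 bp in controls and 1078 and 2299 bp with knockdown. Its fold did not move with its length, at percentiles 24.4 and 26.8 in controls and 23.3 and 23.2 with knockdown. A region of 6619 bp on chr15:63818626-63825244 was covered over 2048 and 2095 bp in controls and 6609 and 5571 bp with knockdown. On chr7:52967398-52971346 the values were 1517 and 1539 bp, and 3881 and 3949 bp. On chr7:141896629-141904081 covered length was 3650 and 3765 bp in controls and 6525 and 6818 bp with knockdown. With EGF it was 2809 and 2723 bp in controls and 4491 and 4596 bp with knockdown, and its percentile of fold was 83.5 and 93.6 in controls and 93.6 and 95.7 with knockdown, groups that met. On chr5:145897216-145901950 the lengths were 1585 and 1744 bp, against 3749 and 3739 bp, and with EGF 1847 and 1945 bp, against 2427 and 2894 bp. The log2 difference of 1.17 there was 0.81 without the first knockdown library and 0.13 without the second. Regions were then merged anew from the remaining peaks, so these values belong to other boundaries. Within the boundaries given here the 2 knockdown libraries were covered nearly alike. On chr16:86644118-86647715, by contrast, 1291 and 1298 bp in controls faced 3006 and 3005 bp with knockdown, while with EGF all 4 libraries lay between 662 and 809 bp. The 10 leading longer regions ranged from 1.8-fold to 8.61-fold, each without overlap between the groups, which the choice of regions required.

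Among shorter regions, chr7:120837328-120839914 had 2538 and 2587 bp in controls and 851 and 797 bp with knockdown, a log2 difference of -1.64 ± 0.17 (SE, limma adjusted p = 0.6). The region on chr3:10215183-10216606 had 1335 and 1424 bp in controls and 289 and 208 bp with knockdown. With EGF that region was covered alike, over 1309 and 1372 bp in controls and 1114 and 1303 bp with knockdown, with the EGF knockdown libraries still the lower pair. On chr5:120905788-120908242 the values were 2386 and 2336 bp in controls and 821 and 970 bp with knockdown, and with EGF 1954 and 1870 bp against 1015 and 1342 bp. In these 3 regions the first control library was covered about as long as the second, which choosing regions by smallest limma p favours. On chr7:151948205-151951013, another leading shorter region, the first control library had 1374 bp and the second 2370 bp.

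The fold enrichment of a peak over its background was compared only as a rank, because its scale differs between lists. The 19564 shared regions were ranked in each library, and ranks are given as percentiles (100 the highest) or, in tests, as normal scores (the standard normal quantile of the rank, so that 1 unit is 1 SD of all regions). Rank profiles were alike in all 4 libraries, most of all between the knockdown libraries (Pearson's r = 0.928 over regions, which are not independent). Percentiles in EGF libraries are over the 16654 regions held by all 8 libraries, a set with fewer weak regions, so a region's percentile tends to be lower on that scale: they are compared between EGF libraries and not with the vehicle percentiles. The controls correlated at 0.889, the second control with the knockdown libraries at 0.886 and 0.885, and the first control with both at 0.855. Both knockdown libraries ranked above both controls in 4784 regions (24.5%) and below both in 4584 (23.4%), a balance that ranking the same regions in every library imposes on average. Limma called 0% of 19564 regions (smallest adjusted p = 0.088), with 1542 higher and 1513 lower at an unadjusted p under 0.05. The number of regions called changed with the library left out, but such a fit leaves 1 library in its group. Its spread then comes from the other group alone, over regions merged anew. Counts from those fits are therefore not given.

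Regions that ranked higher with knockdown included both strong and weak ones. The region with the smallest p, chr19:3388790-3389722, stood at percentiles 77.7 and 70.7 in controls and 99.4 and 97.6 with knockdown, from folds of 6.15 and 6.85 to 14.7 and 12.5 (rank difference 1.58 ± 0.20 SE, limma adjusted p = 0.088). A region on chr11:101502185-101504991 stood at 47.8 and 47.3 in controls and 86.7 and 88.2 with knockdown (1.21 ± 0.17 SE, limma adjusted p = 0.088). On chr11:76220335-76221336 the percentiles were 71.4 and 77.9, against 96.8 and 96.1. From near the bottom of the ranking, chr11:117612550-117613563 moved from percentiles 1.13 and 1.38 in controls to 41.5 and 46.8 with knockdown (2.09 ± 0.34 SE, limma adjusted p = 0.0962). The 10 leading higher-ranked regions differed in covered length by 1.01-fold to 3.23-fold as the ratio of geometric means, beside a median of 1.13-fold over all shared regions. The groups overlapped in length in some of them, as on chr11:101502185-101504991 with 856 and 2783 bp in controls and 1638 and 1503 bp with knockdown.

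Among leading regions that ranked lower, the region with the smallest p, chr8:111227134-111239582, stood at percentiles 99.2 and 94.4 in controls and 61.1 and 60.1 with knockdown (-1.72 ± 0.23 SE, limma adjusted p = 0.088), while its covered length was 4537 and 10425 bp in controls and 12152 and 12429 bp with knockdown. In vehicle the controls held 3 and 2 peaks there and each knockdown library 1. With EGF the lower rank did not repeat: percentiles were 94.8 and 86.4 in controls and 96.2 and 92.2 with knockdown. On chr1:39934337-39935317 the percentiles were 65.7 and 62.6, against 8.38 and 12.6, and the covered lengths 215 and 331 bp, against 761 and 981 bp. Of the 10 leading lower-ranked regions 8 were longer with knockdown, close to the 75.6% of all shared regions that were, and 2 were shorter. One of the 2 was chr5:33870724-33872991, at percentiles 66.8 and 72.1 in controls and 18.1 and 20.4 with knockdown, covered over 2152 and 2241 bp against 1844 and 1648 bp. With EGF this region stood at 14.3 and 14 in controls and at 0.339 and 0.327 with knockdown, covered over 2100 and 2194 bp against 751 and 986 bp. The other was chr7:124036850-124038441, at 65.8 and 61.4 in controls and 14.2 and 7.11 with knockdown, which with EGF had 1482 and 1317 bp in controls and 0 and 568 bp with knockdown.

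Other leading regions differed in whether covered length moved with rank. On chr4:45417918-45422384 percentiles of 96.5 and 93.9 in controls faced 73.7 and 67.1 with knockdown, while covered length was 2149 and 1519 bp in controls and 4252 and 4467 bp with knockdown. On chr19:4190888-4198048 the percentiles were 94.9 and 92.2, against 62.9 and 67, and the lengths 5573 and 5362 bp, against 6885 and 7099 bp. Both regions were thus among the strongest in controls and wider but lower in rank with knockdown. Their coverage was split in controls, into 2 and 1 peaks on chr4 and 2 and 2 on chr19. Each knockdown library held 1 peak in either region. Rank takes the highest fold of a region's peaks, so several peaks in controls faced 1 longer peak, and the part of this was not tested. Over the 10 leading lower-ranked regions the median number of peaks was 1 in each vehicle library. On chr7:13534074-13535866, a region of nearly constant length (1468 and 1593 bp, against 1720 and 1675 bp), percentiles of 63.1 and 49.8 in controls faced 87.2 and 89.4 with knockdown. It passed the limma test among regions of like length (adjusted p = 0.0207), a set described below. On chr2:146102708-146107463 the percentiles were 84.8 and 90.6, against 98.1 and 98.8, and with EGF 77.8 and 82.7, against 96.9 and 93.5.

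**Figure D3:**
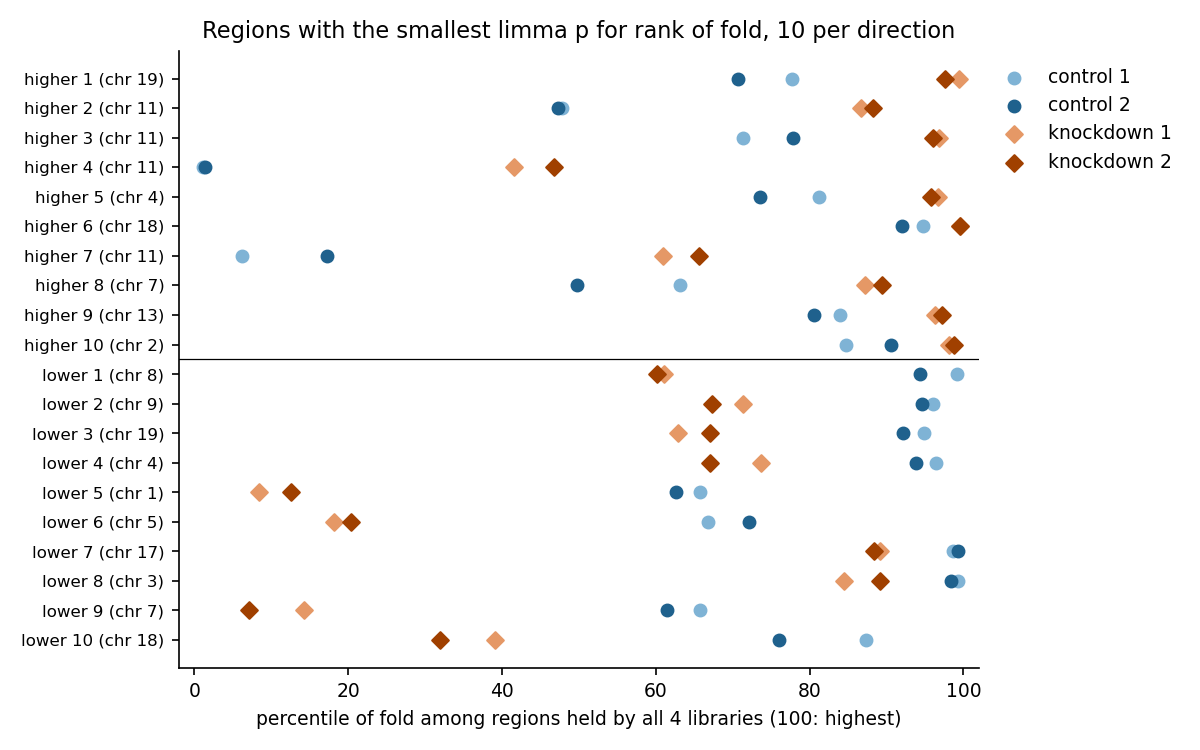
Percentile of fold within each library (horizontal axis, 100 the highest) for the 10 regions per direction with the smallest limma p among regions whose groups do not overlap; circles are control libraries and diamonds knockdown libraries. The first region goes from 77.7 and 70.7 to 99.4 and 97.6; every region was chosen for this separation, so the picture is a description.

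Rank was also read where length barely differed. In 3202 shared regions the longest covered length was at most 1.2 times the shortest, a set chosen after the values were seen. Limma called 33 of them higher and 43 lower, where it called 0 of all 19564 shared regions. An unadjusted limma p under 0.05 was reached by 20.9% of this set and by 15.6% of all shared regions. Across all shared regions the rank difference correlated with the log2 length difference at r = 0.178, a description over regions that share the same 4 libraries. How the caller sets the fold of a wide peak is not given in the sources used here, and its part in these ranks was not tested.

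Rank differences were more spread out among weak regions. Shared regions were divided by mean rank into 5 groups of like size. The SD of the rank difference was 0.579 in the weakest group and 0.33 in the strongest, with 20.6% and 26.4% ranked higher without overlap and 23.3% and 22.8% ranked lower. Regions over 10 kb were less balanced: 14.8% ranked higher with knockdown and 38.3% lower. In the EGF libraries the same 264 regions gave 18.6% higher and 37.1% lower, where over all regions held by all 8 libraries the shares were 25.7% and 24.2%. Their median percentiles were 81.9 and 84.3 in controls and 79.7 and 77 with knockdown, a small shift at the top of the ranking.

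By chromosome, the median rank difference was highest on chromosome X, at 0.11, where 32.1% of 399 shared regions ranked higher and 17.3% lower. It was 0.10 there in the EGF libraries. Chromosomes 7 and 11 followed at 0.06 and 0.05 (0.06 and 0.05 with EGF). The other chromosomes lay between -0.05 and 0.03 in vehicle. With EGF chromosomes 2 and 17 stood about as high as chromosome 11, at 0.05 each. By presence chromosome X went the other way for gains, with 9 gained regions among 667 (1.35%, against 3.2% over all chromosomes), and 0 lost (0.824% over all). Neighbouring shared regions tended to move together when close: the rank differences of 2727 neighbour pairs under 5 kb apart correlated at r = 0.199, and those of 4479 pairs over 100 kb apart at 0.06. These values describe regions of the same 4 libraries and carry no test.

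Length and rank could also be read together. Longer and ranked higher, with no overlap between the groups in either measure, were 2194 regions (11.2%), and 539 (2.76%) were shorter and ranked lower. A further 1363 regions (6.97%) were longer and ranked lower, and 186 (0.951%) were shorter and ranked higher. Among the regions that led when ordered by the larger of their 2 limma p-values, an order chosen after the values were seen, chr7:30773134-30775511 was covered over 683 and 969 bp in controls and 1971 and 2261 bp with knockdown. It stood at percentiles 0.115 and 0.769 in controls and 33.3 and 30.6 with knockdown. With EGF it had 652 and 637 bp in controls and 1155 and 1220 bp with knockdown. On chr11:84551124-84553134, lengths of 417 and 605 bp faced 1318 and 1991 bp, and percentiles of 6.2 and 17.3 faced 60.9 and 65.6. On chr5:64703382-64706908 the lengths were 1319 and 1792 bp, against 3527 and 3346 bp, and with EGF 622 and 806 bp, against 1481 and 1606 bp. The region first in this order, chr7:16637153-16638934, did not repeat in length: 551 and 670 bp faced 1489 and 1552 bp in vehicle, and 1410 and 640 bp faced 718 and 712 bp with EGF. Of the first 10 longer and higher-ranked regions, all held by all 8 libraries, 6 went the same way in both measures with EGF. Of the first 10 shorter and lower-ranked ones 7 were held by all 8 libraries and 5 of these went the same way.

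In the opposite direction, chr7:151965617-151968374 had 2376 and 2758 bp in controls and 1020 and 1046 bp with knockdown, at percentiles 34.7 and 32.3 against 6.23 and 2.74. Its length difference was -1.31 ± 0.17 (SE, limma adjusted p = 0.6) and its rank difference -1.30 ± 0.33 (SE, limma adjusted p = 0.158). On chr15:27268557-27270107 the lengths were 1551 and 1157 bp, against 437 and 487 bp, and with EGF 1292 and 1128 bp, against 370 and 438 bp. A stronger region, chr7:26625338-26630836, had 4095 and 5499 bp in controls and 2459 and 3065 bp with knockdown, at percentiles 86.5 and 84.5 against 60 and 64.7. In the EGF libraries it stood at 52.5 and 48.7 in controls and 11.4 and 16.1 with knockdown. On chr15:88031478-88034917 the lengths were 2362 and 3440 bp, against 1499 and 1285 bp, and with EGF 981 and 1090 bp in controls and no peak with knockdown.

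The EGF libraries took no part in defining the vehicle sets and ordered many of the same regions the same way. The shares for rank and length below are over regions held by all 8 libraries, which EGF peaks decide in part. Over the 16654 regions held by all 8 libraries the rank difference with knockdown in vehicle and that with EGF correlated at r = 0.42, and 64.8% had the same sign. The libraries of the 2 comparisons are separate, but nothing in the labels says whether the knockdown libraries shared a preparation day, so siRNA and such a batch cannot be told apart. Of 4134 regions ranked higher in vehicle without overlap, 44.6% were ranked higher without overlap with EGF and 9.87% lower. Over all 16654 regions these shares were 25.7% and 24.2%. Of 3925 regions ranked lower in vehicle, 42.9% were lower and 11.1% higher with EGF.

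**Figure D4:**
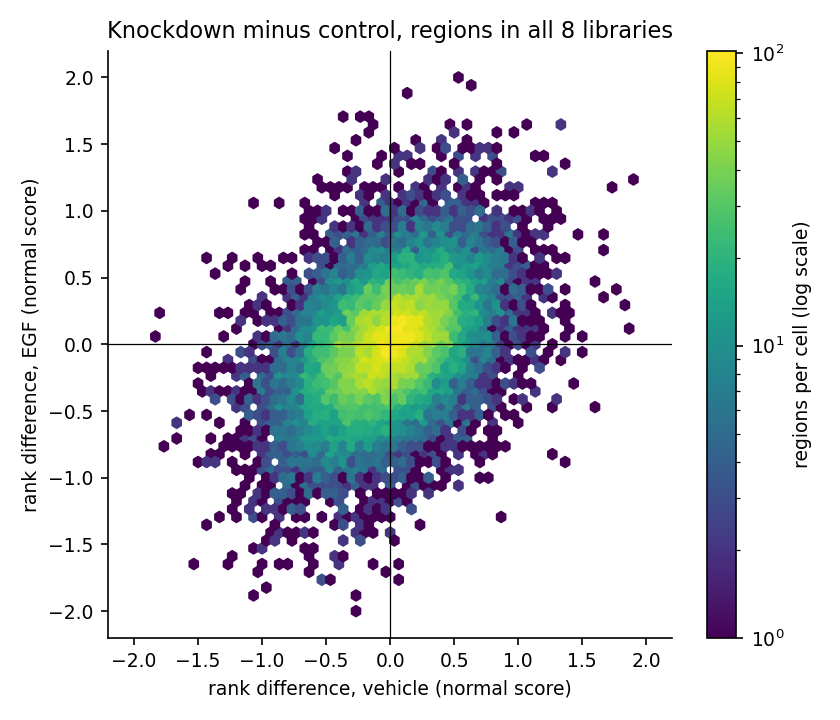
Rank difference, knockdown minus control in normal scores, for each of the 16654 regions held by all 8 libraries, in vehicle (horizontal axis) and with EGF (vertical axis); colour gives the number of regions per cell on a log scale. The cloud leans along the diagonal (r = 0.42), with 64.8% of regions on the same side of 0 in both.

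Agreement in rank was closest for regions that had moved the same way in both measures. Held by all 8 libraries were 382 of 539 regions shorter and ranked lower in vehicle and 1966 of 2194 longer and ranked higher, an uneven filter. With EGF, 67.3% of those shorter and ranked lower were again ranked lower without overlap. Of those longer and ranked higher, 49.4% were again ranked higher without overlap. Of the 382 shorter and lower-ranked regions held by all 8 libraries, 146 (38.2%) were shorter and ranked lower without overlap with EGF as well, and 1 (0.262%) was longer and ranked higher. Of the 1966 longer and higher-ranked ones, 456 (23.2%) went the same way with EGF and 9 (0.458%) the opposite way. Over all 16654 regions, 8.44% were longer and ranked higher and 6.6% shorter and ranked lower with EGF. Of the 1244 regions that were longer and ranked lower in vehicle, with EGF 29.4% were longer and 15.4% shorter without overlap, and 29.3% ranked lower and 17.1% higher. Of the 163 that were shorter and ranked higher, 23.3% were longer and 19.6% shorter with EGF, and 31.3% ranked higher and 19% lower. Over all regions held by all 8 libraries, 26.4% were longer and 18.2% shorter with EGF. Without the first control library the same-way share was 23.5% of shorter and lower-ranked regions, and without the second 15% of longer and higher-ranked regions. Both were still above the shares over all regions.

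**Figure D5:**
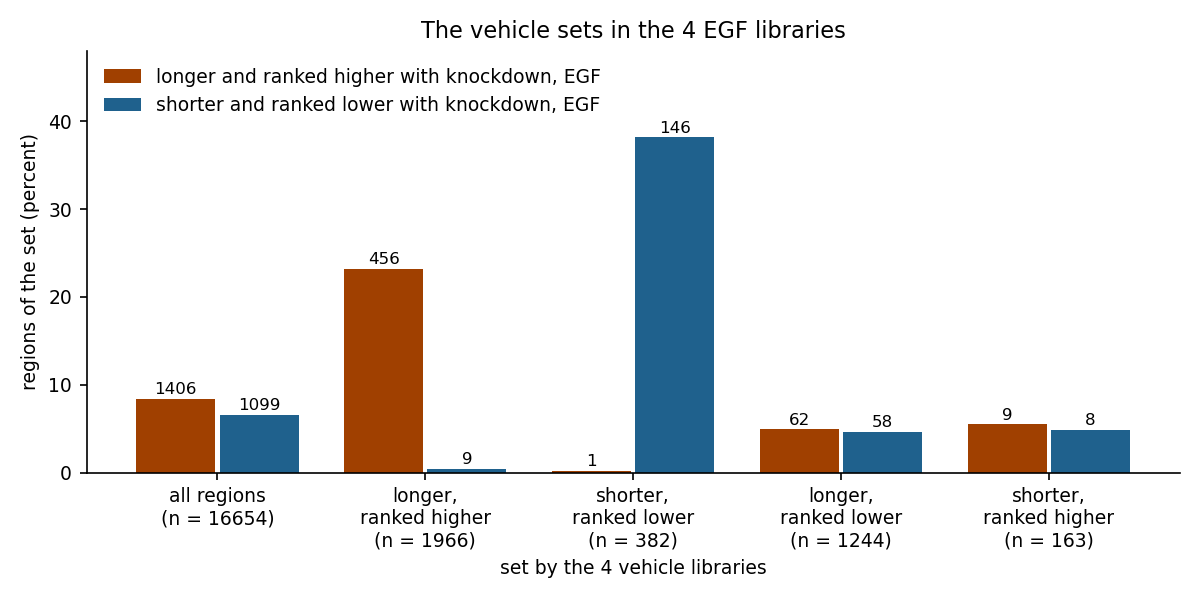
Percent of regions in each vehicle set (horizontal axis) that were longer and ranked higher (brown) or shorter and ranked lower (blue) without overlap in the EGF libraries, with counts above the bars. In the set shorter and ranked lower in vehicle the blue bar stands at 38.2% and the brown one at 0.262%, against 6.6% and 8.44% over all regions.

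Peak presence carried over in part. Of the 1037 gained regions, 85 (8.2%) had a peak in both EGF knockdown libraries and neither EGF control, 13 (1.25%) the reverse, 93 a peak in all 4 EGF libraries and 537 in none. Of the 267 lost regions, 46 (17.2%) had a peak in both EGF controls only and 1 (0.375%) in both EGF knockdown libraries only, and 133 had none. Over all 32418 regions these shares were 1.99% and 2.01%. About 1 in 2 gained or lost regions thus had no peak at all with EGF, 51.8% and 49.8%.

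Tested directly, the knockdown effect on rank with EGF minus that without differed in 0% of 16654 regions by limma (smallest adjusted p = 0.266), with 1294 at an unadjusted p under 0.05. In the EGF libraries alone limma called 1 region higher and 2 lower (0.018%). A fit over all 8 libraries, which estimates the spread from all 4 groups but the effect from the vehicle libraries, called 34 higher and 36 lower in vehicle (0.42%), of which 30 and 30 had the same sign with EGF. Of the leading higher-ranked regions 8 were held by all 8 libraries: all 8 passed that fit, and 7 had the same sign with EGF. Of the leading lower-ranked ones 9 were held and all 9 passed, but only 6 had the same sign with EGF. Both sets were chosen for small p in the vehicle libraries that give this fit its effect, so their passing is no separate support. The exception among higher-ranked regions was chr4:62185385-62186444, at percentiles 81.2 and 73.6 in controls and 96.7 and 95.8 with knockdown in vehicle, which with EGF stood at 95.8 and 95.8 in controls and 95.8 and 94.7 with knockdown. On chr13:36208876-36210463 the order repeated: percentiles of 84 and 80.6 faced 96.3 and 97.2 in vehicle, and 23.3 and 36.8 faced 51.3 and 56.6 with EGF. Among the named rank regions the smallest unadjusted limma p with EGF was 8.47e-05 (adjusted p = 0.0623), for chr11:76220335-76221336. With EGF it stood at 70.7 and 65.5 in controls and 98.8 and 93 with knockdown. No named rank region reached a limma adjusted p under 0.05 in the EGF libraries.

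Runs of neighbouring regions with the same direction can be listed, though their number follows how many regions lay apart in all (36.6% longer, 6.97% shorter, 24.5% higher and 23.4% lower in rank). Runs of at least 3 neighbouring shared regions, with gaps of up to 50 kb, were longer with knockdown in 433 places, shorter in 10, higher in rank in 174 and lower in 109. The longest run of shorter regions lay on chr7:151945483-151984022 and held 5 regions over 38.5 kb. Together they were covered over 7292 and 9346 bp in controls and 3021 and 2953 bp with knockdown, a ratio of means of 0.359. With EGF the sums were 7441 and 8233 bp in controls and 4234 and 4539 bp with knockdown. By the rule that defines such a run every one of the 5 was shorter in both knockdown libraries than in both controls. The first, from 151945483, had 1195 and 1174 bp against 529 and 596 bp, and the second, from 151948205, had 1374 and 2370 bp against 387 and 377 bp. The third, from 151952207, had 1235 and 1708 bp against 681 and 599 bp, and the last, from 151982635, had 1112 and 1336 bp against 404 and 335 bp. The run ends where a neighbour fails that rule; the ratios beyond it were 0.87 over chr7:151854484-151926662 and 0.977 over chr7:152009433-152101893.

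The longest run of longer regions, on chr7:134350025-134531008, held 11 regions, covered in sum over 14519 and 17795 bp in controls and 21028 and 21007 bp with knockdown (ratio 1.3). With EGF the sums were 15905 and 16789 bp, against 16888 and 19229 bp. On chr8:119780180-119873984 a stretch with 8 longer regions was covered over 17998 and 29799 bp in controls and 34336 and 41075 bp with knockdown (ratio 1.58), and with EGF over 18857 and 20476 bp against 24691 and 23492 bp. Here the first control library again lay far below the second. The longest run of lower rank, on chr17:31527738-31629485, held 6 shared regions. It was covered over 14722 and 22158 bp in controls and 18473 and 18534 bp with knockdown, a ratio of means of 1. The first control library lay below both knockdown libraries and the second above both. All 4 of its regions held by all 8 libraries were also lower in rank with EGF. The longest run of higher rank, on chr1:74282545-74379786, held 7 shared regions, of which 6 were higher in rank with EGF as well.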

How the data were processed

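H3K27ac immunoprecipitation libraries were analysed as the peak lists the authors deposited, 1 per library, with 9 columns and no header, so peaks were called per sample. The submitters' processing notes name MACS2 2.1.1.20160309.0, Bowtie2 2.3.4.2, deepTools 3.0.2 and SAMtools, and build mm9, but no role or order. Neither the caller's settings nor an input library is named in the sources used here. The deposited fold enrichment (a ratio over the caller's background) was ranked within each list. The deposited score served as an alternative to it and to shorten lists, whereas the deposited −log10 values of p and q were not used further; no peak had a −log10 q under 1.00. Read depth is unknown, and a deeper library can yield longer lists and wider peaks.

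Gained and lost regions were defined by peak presence. Covered length (log2(bp + 200) where at least 2 libraries held a peak, log2 bp where all 4 did) and normal scores of the rank of fold were tested with limma 3.58.1 (R 4.3.3; trended empirical Bayes) on the 4 vehicle libraries, with Benjamini-Hochberg adjustment over all regions and a threshold of 0.05. The added 200 bp shrinks differences between short peaks. Lack of a peak does not show lack of acetylation. Totals were compared by exact permutation. Other steps used matplotlib 3.10.9, SciPy 1.17.1, NumPy 2.4.6 and pandas 2.3.3 in Python 3.11.15. The joining of peaks, covered length, presence counts and the main limma fits on the 4 vehicle libraries were tested on simulated data. The other steps were not. Regions named are the 10 gained and 10 lost whose lower fold percentile is highest, the 10 in each direction with the smallest limma p among shared regions whose groups do not overlap (for length and for rank), and the 5 widest; leading regions of both measures and runs were added after the values were seen. Regions, measures and lists were chosen with earlier results of these data known. Gene lists, cell type markers and promoters were not analysed here, since the annotation used would have to be of build mm9. Alternatives were lists of equal length, stricter scores, other rules for overlap, pseudocounts and filters, quantile normalization, other ranked values, all 8 libraries in 1 fit, a fit with a replicate block, and each library left out in turn.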

Additional observations from a re-analysis of the deposited data

How the results depend on the processing

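Peak presence gave 538 gained and 153 lost regions from peaks above the median score of their list, 762 gained and 606 lost from lists of equal length, nearer to balance, and 1669 gained where a peak had to cover most of the region (0.5 of its length or more). Leaving out 1 library gave 1191 to 3940 gained and 511 to 2716 lost. Quantile normalization, which forces equal distributions of length on the libraries, turned the median length difference to -0.0337 where at least 2 libraries held a peak and to -0.0242 in fully shared regions. For covered length where at least 2 libraries held a peak, limma called 410 regions longer and 88 shorter with all 8 libraries in the fit, and 247 and 58 from peaks above the median score. In fully shared regions the fit with all 8 libraries called 0 (2085 at an unadjusted p under 0.05), as did the other settings run for length. For rank of fold it called 34 higher and 36 lower with all 8 libraries, and 7 and 23 with score in place of fold. In regions of like covered length, ranked and adjusted among themselves, it called 33 and 43. Leaving out 1 library gave 0 to 243 higher and 0 to 205 lower. The causes of these differences were not tested.

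Libraries of the 2 groups share replicate numbers, but the numbers did not pair them: with 2 pairs, the replicate differences of the groups correlated at 0.02, -0.00383 and -0.00575 over regions for length in at least 2 libraries, length in all 4 and rank. With the replicate block limma called 35 regions higher and 42 lower in rank.

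The share of regions moving the same way with EGF ranged from 15 to 40% for longer and higher-ranked regions and from 23.5 to 57.6% for shorter and lower-ranked ones when 1 of the 8 libraries was left out, and the correlation of rank differences from 0.339 to 0.405. Without an EGF library fewer libraries need to be apart, so that shares over all regions rise too, to between 11.6 and 19.1%. The regions named for presence, length or rank (20 each) kept their direction in each alternative run for them. They were chosen with the groups apart, so most alternatives could hardly turn that direction, and its keeping lends them no support. The widest regions, the leaders of both measures and the runs were not recomputed. Unknown depth limits what absence of a peak, or a shorter one, can show.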
